A study of Rattus norvegicus with 8 samples.

Results

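Hbb, Hbb-b1, Alas2 and Ahsp are 4 genes that red blood cell precursors use to make hemoglobin. They were chosen by symbol, 4 of the 13854 symbols on a rat expression array: every non-control probe whose RefSeq transcript belongs to one of them was taken, which gave 4 probes, 1 for each gene. The array probes were read in RNA from adipose-derived mesenchymal stem cells (ATSC), stromal cells grown from the fat under the skin of male Sprague-Dawley rats. The groups are 3 samples of ATSC on livers that had undergone ischemia-reperfusion injury (IRI, a stop of blood flow followed by its return), 4 of ATSC on liver without that injury (non-IRI) and 1 of ATSC in culture (in vitro). All groups share the same isolation from fat, with collagenase, and growth in serum-containing medium. The labels do not say how the cells were placed on the liver or taken back, at what time, or whether replicates are separate animals, so p-values measure only the spread between these samples.

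Hemoglobin is a tetramer of alpha-type and beta-type globin chains, each holding a heme. In erythroid cells heme synthesis begins with ALAS2, the mitochondrial erythroid 5-aminolevulinate synthase, while other cells use ALAS1, and the further enzymes end with ferrochelatase, which inserts iron. AHSP is a chaperone that binds free alpha-globin until a beta chain is available. Mature red cells of mammals have no nucleus, but reticulocytes, the youngest red cells of blood, still carry globin mRNA, so blood is a known source of these transcripts in RNA from a tissue.

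Hbb (NM_033234) encodes a beta-type globin and lies at chr1:167662310-167663721 of the GRCr8 assembly. Hbb-b1 (NM_198776), another beta-type globin gene, lies at chr1:167636064-167643577 in the same cluster. In the RefSeq annotation the cluster runs in the order Hbb-bs, Hbb-b1, Hbbl1, Hbb-b2, Hbb, a pseudogene, Hbg1, Hbe2 and Hbe1. Hbb-bs, Hbbl1 and Hbb-b2 had no probe matched to their symbols, and adult beta-globin genes are close copies, so signal of a beta-globin probe could come in part from a neighbouring copy. Alas2 (NM_013197) lies at chrX:22890650-22914046 and Ahsp (NM_001106299) at chr1:192310306-192315943.

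The promoters of both beta-globin members are shown because these genes lie in 1 cluster. Over the liver arrays their levels followed each other (r = 0.86, n = 7), less closely than those of Hbb and Alas2 (r = 0.99). The windows shown are the 250 bases before the start of transcription in RefSeq's table for GRCr8, both on the minus strand. They lie at chr1:167663722-167663971 for Hbb and chr1:167643521-167643770 for Hbb-b1. The annotated span of Hbb-b1 covers the last 57 bases of its window. Capitals mark matches to CCNCNCCC (the CACCC box bound by KLF1 and related factors), to CCAAT on either strand, and to TATAAA (the TATA box) on the printed strand.
Hbb: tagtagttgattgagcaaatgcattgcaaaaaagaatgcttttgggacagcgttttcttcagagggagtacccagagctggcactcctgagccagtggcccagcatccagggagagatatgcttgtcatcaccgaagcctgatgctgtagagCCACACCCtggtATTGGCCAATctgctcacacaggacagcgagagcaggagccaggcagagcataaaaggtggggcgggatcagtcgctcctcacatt
Hbb-b1: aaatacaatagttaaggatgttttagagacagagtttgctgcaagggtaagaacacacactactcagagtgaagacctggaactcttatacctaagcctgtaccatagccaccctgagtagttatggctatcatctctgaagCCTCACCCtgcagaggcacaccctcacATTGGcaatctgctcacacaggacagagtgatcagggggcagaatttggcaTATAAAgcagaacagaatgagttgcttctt
Hbb had a CACCC-box match from base 98 to 91 before the start and a CCAAT match on each strand, from base 86 to 82 and from 81 to 77, which lie next to each other. Hbb-b1 had a CACCC-box match from base 108 to 101, a CCAAT match on the opposite strand from 81 to 77 and a TATA-box match from 30 to 25. The longest run the windows share is 21 bases, caatctgctcacacaggacag, from base 80 to 60 in Hbb and from 76 to 56 in Hbb-b1. The CACCC-box motif, searched on both strands, was found in 42.8% of the 33469 promoters of the table and the CCAAT motif in 34.0%, while the TATA-box motif on the printed strand was found in 8.06%. The motif AGATAA, which factors such as GATA1 bind, was searched on both strands. It was held by 10.3% of promoters and was in neither window. The Alas2 window, not shown, had 1 match, from base 136 to 131. That window lies within the annotated span of Alas2.

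Levels are log2 of the processed Cy3 signal relative to the 75th percentile of the array's signal. Between 53.5% and 59.7% of spots per array were well above background, the scanner software's call that a spot exceeds its local background, and no spot was saturated. Per the file headers the arrays lay on 2 slides: the 3 IRI arrays and the in vitro array on slide 1, and the 4 non-IRI arrays on slide 2. IRI against non-IRI, and non-IRI against in vitro, therefore cannot be told apart from slide, while IRI and in vitro were compared within 1 slide. A difference was called at an adjusted p under 0.05 (limma, Benjamini-Hochberg over all probes kept). The defining genes of the labelled cell type were present: 14 of 14 mesenchymal stromal markers were well above background on 7 of the 8 arrays and 13 on non-IRI 1, and their mean level was 4.48 to 4.63 in IRI, 3.61 to 4.81 in non-IRI and 4.71 in vitro.

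All 4 genes were well above background on 7 of 7 liver arrays. In vitro only Ahsp was. For Hbb, Hbb-b1 and Alas2 the order of the groups was IRI, then non-IRI, then in vitro, where the signal was not well above background.

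**Figure D1:**
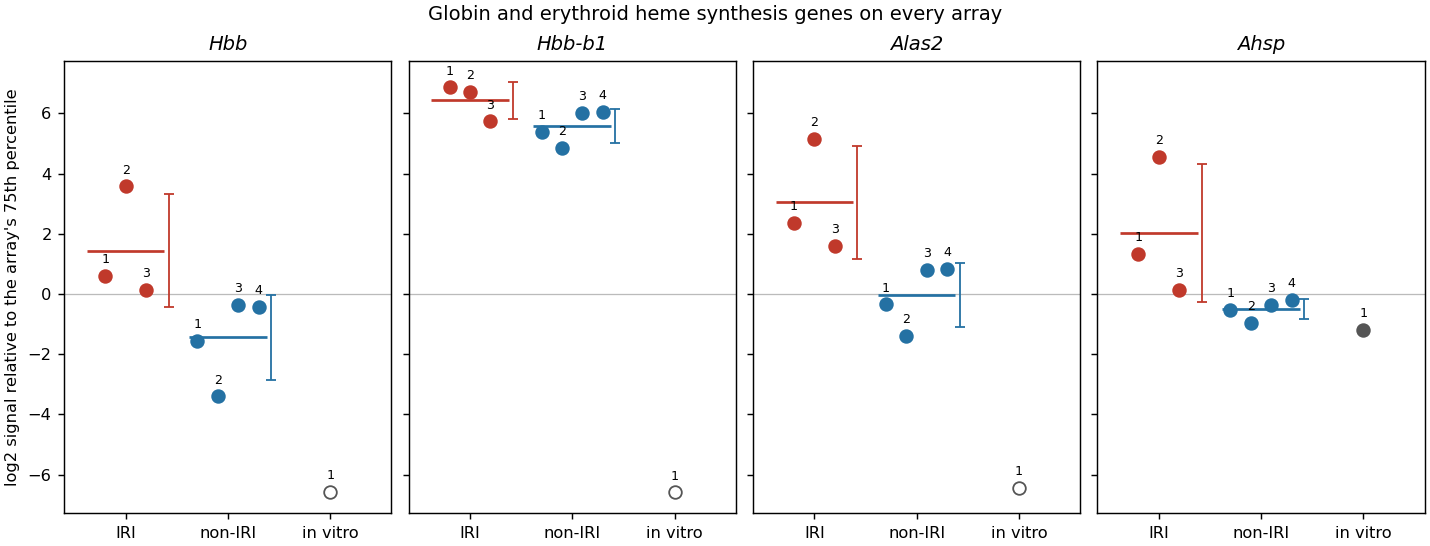
Level of each gene on each of the 8 arrays (vertical axis, log2 of the processed signal relative to the array's 75th percentile), with IRI in red, non-IRI in blue and in vitro in grey. Numbers are replicate numbers, lines group means, bars at the side 1 SD, and open circles signals not well above background. Heights may be compared within a gene, not between genes, and IRI 2 is the highest array for Hbb, Alas2 and Ahsp.

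Hbb was 0.61, 3.58 and 0.13 on IRI 1 to 3, and -1.56, -3.40, -0.37 and -0.43 on non-IRI 1 to 4. The 3 IRI arrays were all above the 4 non-IRI arrays, with a gap of 0.50 between the nearest arrays, and IRI 2 was far above the other 2 IRI arrays. The IRI mean was 1.44 ± 1.87 (SD, n = 3) and the non-IRI mean -1.44 ± 1.42 (n = 4). The log2 difference was 2.88 ± 0.99 (SE), with a 95% interval of 0.59 to 5.17, and did not pass (adjusted p = 0.223, limma). In processed intensity, which is not scaled between arrays, Hbb read 237, 3472 and 291 on the IRI arrays and 1.87 in vitro.

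Hbb-b1 was 6.87, 6.71 and 5.73 on IRI 1 to 3, and 5.39, 4.86, 6.01 and 6.05 on non-IRI 1 to 4. These groups overlapped, because IRI 3 was lower than non-IRI 3 and non-IRI 4. The means were 6.44 ± 0.62 (SD, n = 3) and 5.58 ± 0.57 (n = 4), and the difference of 0.86 ± 0.38 (SE) had an interval of -0.024 to 1.74 (adjusted p = 0.345, limma). IRI 2, the array far above the other liver arrays for Hbb, did not stand out for Hbb-b1.

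Alas2, the erythroid enzyme of the first step of heme synthesis, was 2.37, 5.16 and 1.60 on IRI 1 to 3 and -0.34, -1.38, 0.80 and 0.85 on non-IRI 1 to 4. The groups did not overlap, with a gap of 0.75. The means were 3.04 ± 1.87 (SD, n = 3) and -0.02 ± 1.06 (n = 4). The difference was 3.06 ± 0.89 (SE), with an interval of 1.01 to 5.12, and did not pass (adjusted p = 0.152, limma).

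Ahsp, the alpha-globin chaperone, was 1.33, 4.56 and 0.14 on IRI 1 to 3 and -0.53, -0.96, -0.35 and -0.18 on non-IRI 1 to 4. The non-IRI arrays lay close together (-0.50 ± 0.33, SD, n = 4), while the IRI arrays were far apart (2.01 ± 2.29, n = 3). The groups did not overlap, with a gap of 0.32 between IRI 3 and non-IRI 4. The difference was 2.51 ± 0.91 (SE), with an interval of 0.42 to 4.61 (adjusted p = 0.244, limma).

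Of the 4 genes, 0 passed in IRI against non-IRI, where 2.82% of the 24821 probes tested passed in either direction, 0.33% higher and 2.49% lower in IRI. At an unadjusted p under 0.05, 3 of the 4 would have passed, as would 15.1% of all probes in either direction. The 3 IRI arrays were above every non-IRI array for 3 of the 4 genes, against 6.93% of 24751 probes. In each gene non-IRI 2 was the lowest liver array. Fewer cells of a type and less RNA per cell cannot be told apart in RNA of a bulk sample.

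**Figure D2:**
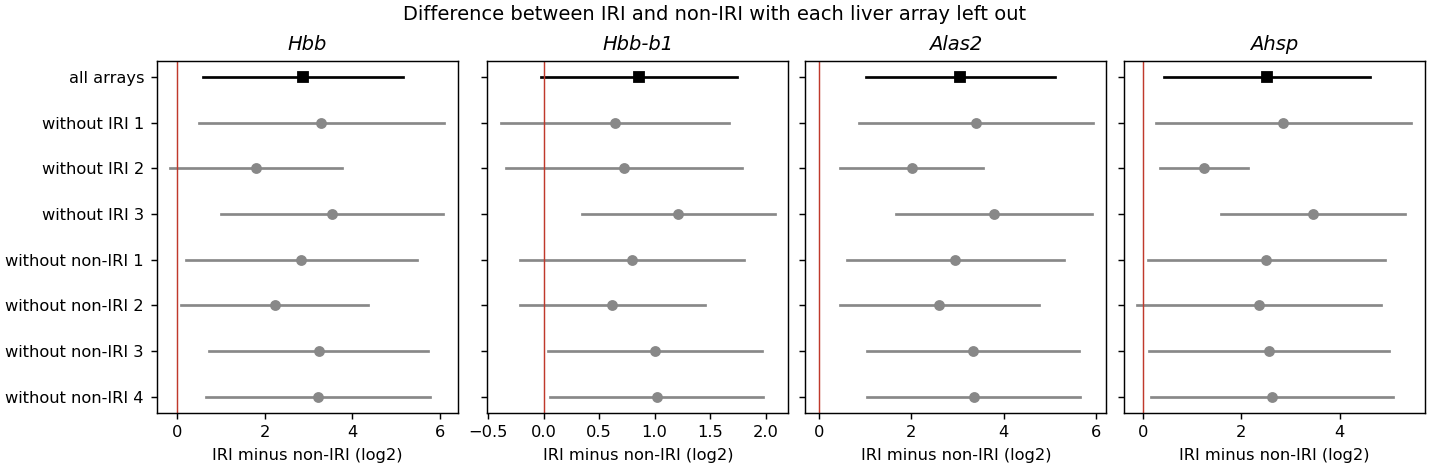
Difference between IRI and non-IRI (horizontal axis, log2) for each gene with all arrays (black square) and with each liver array left out (grey circles), with 95% intervals from limma. Without IRI 2 the interval of Hbb runs from -0.16 to 3.77, and the estimates of Alas2 and Ahsp are 2.00 and 1.24.

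The size of the difference depended on IRI 2 for Hbb, Alas2 and Ahsp, while that of Hbb-b1 moved more without IRI 3. Without IRI 2 the log2 difference was 1.81 for Hbb (adjusted p = 0.494, limma), 0.72 for Hbb-b1 (0.621), 2.00 for Alas2 (0.299) and 1.24 for Ahsp (0.258). Without IRI 3 it was 3.53, 1.21, 3.78 and 3.45 in the same order, with adjusted p-values of 0.309, 0.309, 0.152 and 0.137. The 4 differences stayed positive without each of the 7 liver arrays, and 0 of 4 passed in each case.

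With signals as measured, Hbb, Hbb-b1 and Alas2 were called higher than culture in both liver groups. The call of Hbb in non-IRI ended when its in vitro signal was raised to that array's lowest signal well above background. Hbb in IRI lost its call under 4 of 20 alternatives, and Alas2 in non-IRI under 4 of 19. Hbb was -6.57 in vitro, Hbb-b1 -6.59 and Alas2 -6.44, each not well above background. The folds are therefore lower bounds with regard to the in vitro signal, but do not cover the spread between arrays. The adjusted p-values beside them are those of the signals as measured. For those signals the 95% intervals in IRI began at 23.3-fold for Hbb, 3302-fold for Hbb-b1 and 83.3-fold for Alas2. In non-IRI they began at 3.42-fold, 1875-fold and 10.7-fold. Without IRI 2 the measured Hbb difference between IRI and culture was 6.94 on the log2 scale, against 8.00 with all arrays. IRI exceeded in vitro at least 58.5-fold for Hbb (adjusted p = 0.00678, limma), at least 1869-fold for Hbb-b1 (5.25e-06) and at least 178-fold for Alas2 (0.00191). With each signal not well above background raised to its array's lowest signal well above it, the 3 still passed (0.0199, 6.27e-06 and 0.00443). Within slide 1 these 3 calls held, with adjusted p-values of 0.0228, 0.000479 and 0.0148. Under the replicate block, a fit that adds the replicate number as a term, Hbb did not pass (0.0538).

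Ahsp was -1.19 in vitro and well above background there. It was higher in IRI by 3.20 ± 1.37 (SE; adjusted p = 0.117, limma) and in non-IRI by 0.69 ± 1.33 (0.710), and neither passed. The interval of the second difference was -2.38 to 3.76. Without IRI 2 the IRI difference was 1.93 and passed (0.0433), as it did without IRI 3, at 4.14 (0.0450).

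Non-IRI exceeded in vitro at least 7.96-fold for Hbb (adjusted p = 0.0291, limma), at least 1031-fold for Hbb-b1 (5.05e-06) and at least 21.3-fold for Alas2 (0.00824). With signals raised in the same way Hbb did not pass (2.99 on the log2 scale, 0.135), while Hbb-b1 (7.38e-06) and Alas2 (0.0288) did. With the replicate block only Hbb-b1 of the 4 passed, with adjusted p-values of 0.155 for Hbb and 0.0681 for Alas2. Hbb also did not pass without non-IRI 4 (0.0558). In both comparisons 3 of 4 genes were called higher on liver, where 28% of 24810 probes passed in either direction in IRI (13.5% higher, 14.5% lower) and 33.7% in non-IRI (16% higher, 17.7% lower). The 1 in vitro array has no spread of its own, so the fit gave it that of the liver groups.

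Among the other globins, Hba-a3 (NM_001013853), an alpha-type globin gene on chromosome 10, was 8.87, 9.66 and 8.06 on IRI 1 to 3, and 6.41, 5.77, 7.26 and 7.22 on non-IRI 1 to 4. The groups did not overlap, and the difference of 2.19 ± 0.48 (SE) did not pass (adjusted p = 0.0581, limma). It passed under 6 of 21 alternatives, with adjusted p-values of 0.0278 to 0.0466, among them arrays scaled to their median (0.0347) and array weights (0.0412), and not with the replicate block or with any 1 liver array left out (0.0649 to 0.186). In vitro Hba-a3 was -3.51, well above background, and it rose by 12.38 in IRI (1.72e-05) and by 10.18 in non-IRI (4e-05).

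The embryonic-type beta-globin genes were dim on the liver arrays. Hbe1 was not well above background on any liver array by either of its 2 probes; in vitro it was -2.11 on one probe, well above background, and -6.59 on the other, not well above. The first probe passed the filter on dim probes only through the in vitro array, so its difference from the liver groups was not read as a result. The probes also disagree. Hbe2 was well above background on 4 of 4 non-IRI arrays (-3.30 to -4.18) and on 1 of 3 IRI arrays, and the difference was -0.78 (0.371). Hbg1 and Hbz did not pass the filter on dim probes. Of the 7 globin genes with a probe, 5 passed that filter, Hbe1 among them through the in vitro array alone. In IRI against non-IRI 0 of these 5 passed.

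Cygb, Mb and Ngb encode globins of other tissues (cytoglobin, myoglobin and neuroglobin). In IRI against non-IRI they had differences of -0.33, -0.62 and -0.42, and none of the 3 passed by limma. Cygb, which stromal cells express, rose against culture by 2.80 in IRI (adjusted p = 0.00216, limma) and by 3.13 in non-IRI (0.001).

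**Figure D3:**
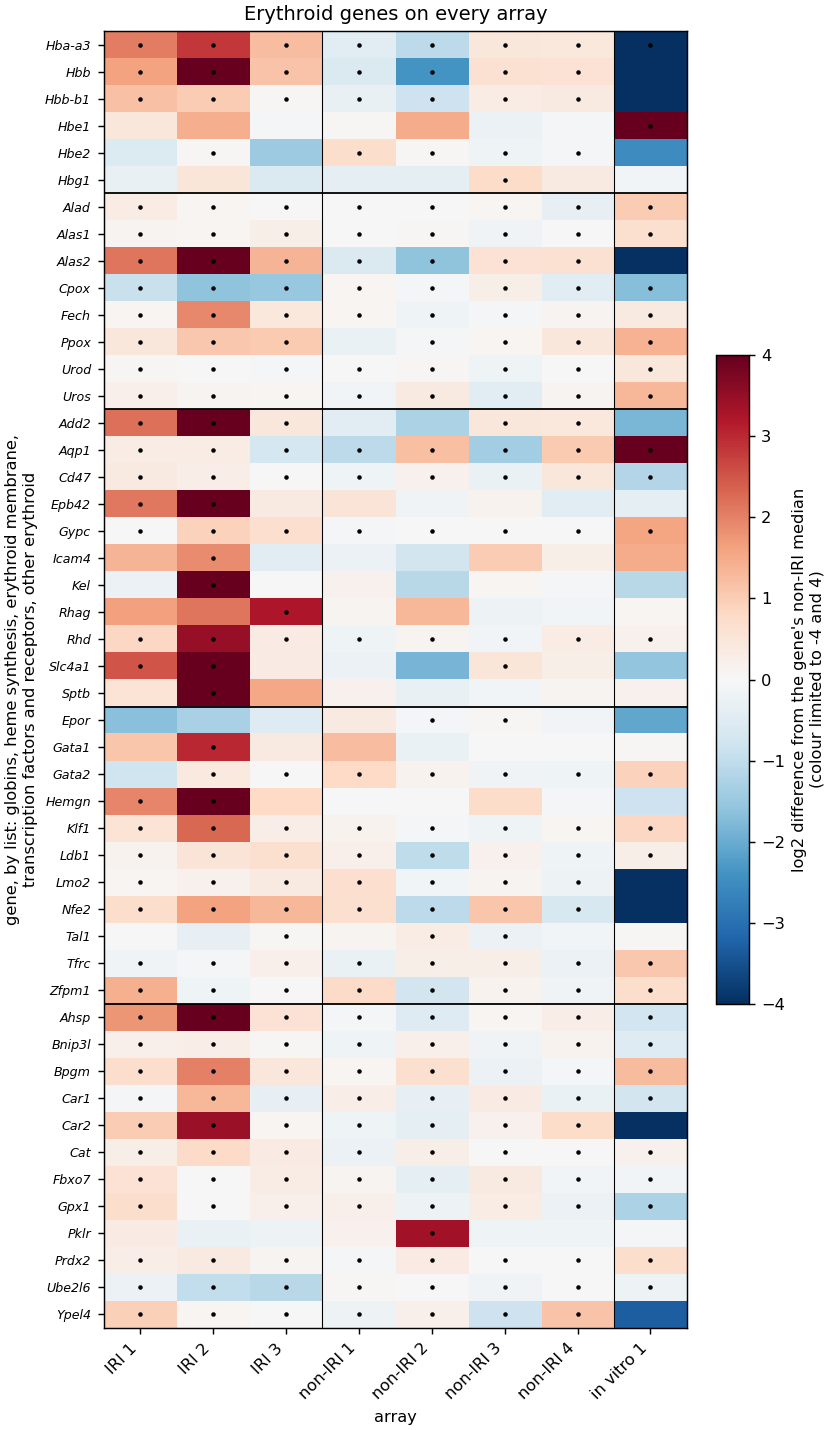
Globin, heme synthesis and erythroid genes (rows, 1 probe a gene: the probe with the highest liver mean among those well above background on at least 1 array) on the 8 arrays (columns). Colour gives the log2 difference from the gene's median on the 4 non-IRI arrays, and a dot marks a signal well above background; IRI 2 is the array with dots and red in rows such as Sptb, Kel and Gata1, where the other liver arrays have no dot.

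Of 8 enzymes of heme synthesis read here, Alas2 among them, 0 rose and 1 fell in IRI against non-IRI. Of all probes 0.33% rose and 2.49% fell. The median difference of the 8 was 0.18, against 0.02 over all probes. Alas1, the enzyme for the same step outside erythroid cells, differed by 0.17 ± 0.14 (SE; adjusted p = 0.634, limma). Alad, Uros and Urod, which act on the way from aminolevulinate to the porphyrin ring, differed by 0.03 to 0.19, and none passed.

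Cpox, coproporphyrinogen oxidase, fell in IRI. It was -2.43, -3.13 and -3.04 on IRI 1 to 3 and -1.44, -1.61, -1.29 and -1.98 on non-IRI 1 to 4, a difference of -1.29 ± 0.24 (SE; adjusted p = 0.0333, limma). It did not pass under the replicate block (0.0747), without the filter on dim probes or with background corrected by normexp. The call also ended when IRI 2 (0.139) or IRI 3 (0.161) was left out, or when 1 of the arrays non-IRI 1 (0.101), 2 (0.0829) and 3 (0.0731) was. Fech, ferrochelatase, was 1.62 on IRI 2 and between -0.48 and 0.12 on the other 6 liver arrays, a difference of 0.82 (0.395). Ppox, protoporphyrinogen oxidase, was higher by 0.81 (0.154).

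**Figure D4:**
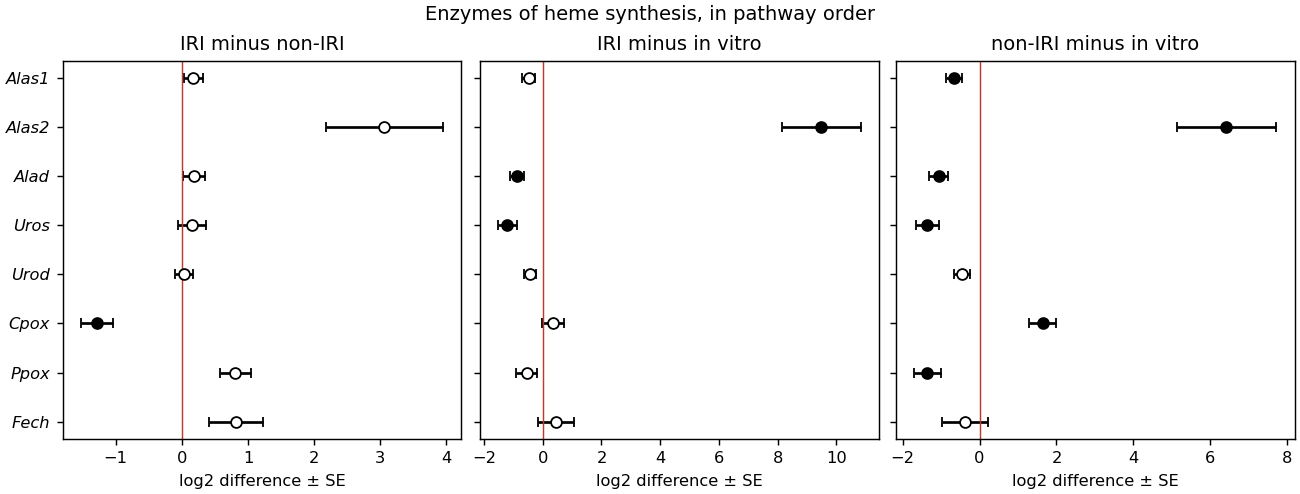
Log2 difference (horizontal axis, with SE bars) of 8 enzymes of heme synthesis in pathway order, with Alas1 and Alas2 as alternative first enzymes, for the 3 comparisons. Filled circles passed at an adjusted p under 0.05 (limma); Alas2 lies far to the right of the other 7 in each panel.

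Against culture, Alas2 rose on liver, and 2 other enzymes fell in IRI and 4 in non-IRI, counts that depended on the setting. In IRI 1 of 8 rose (Alas2) and 2 fell, where 13.5% of all probes rose and 14.5% fell: Alad by 0.88 on the log2 scale (adjusted p = 0.0346, limma) and Uros by 1.20 (0.0253). Neither passed with the replicate block (0.106 and 0.0745), nor without IRI 2 (0.0791 and 0.0571) or IRI 3 (0.0938 and 0.0659), and Alad did not without non-IRI 1 (0.0591) or within slide 1 (0.0657). In non-IRI, where 16% of all probes rose and 17.7% fell, 2 of 8 rose, Alas2 and Cpox (1.64, 0.0106), and 4 fell: Alas1, Alad, Uros and Ppox, by 0.65 to 1.36. With the replicate block 1 rose and 2 fell. With normexp on median signals, or with slide position as the block, 0 fell in either liver group and 0 rose in non-IRI, and without the filter on dim probes 0 fell in IRI. Leaving out 1 array gave 3 to 4 that fell in non-IRI; Alas1 did not pass when IRI 2 or 3, or 1 of the arrays non-IRI 1, 3 and 4, was left out (0.0663 to 0.0848). The median of all probes was itself -0.27 in IRI and -0.25 in non-IRI against culture, and scaling arrays to their median instead moved every difference from culture in IRI by -0.30.

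Erythroid genes beyond the members were read from lists of membrane proteins, transcription factors with receptors, and other enzymes. Of 38 such genes read on the array 24 passed the filter on dim probes. Of these 24, 16 were well above background on all 8 arrays, culture included. The counts and medians therefore largely describe genes that cultured ATSC also express. In IRI against non-IRI 0 of 24 passed, where 2.82% of all probes passed. The median difference of the 24 was 0.31. By list the medians were 1.03 for membrane genes, 0.25 for factors and 0.30 for the others, the last over 11 genes with the member Ahsp among them. Genes with the smallest p among membrane proteins were Add2 (2.94, adjusted p = 0.256, limma), Slc4a1 (3.63, 0.280) and Gypc (0.54, 0.315). The sizes for Add2 and Slc4a1 rest in part on signals not well above background: of the 7 liver arrays, 5 were well above it for Add2 and 3 for Slc4a1. With such signals raised to the array's lowest signal well above background the differences were 2.51 (0.283) and 2.91 (0.339).

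Several of these genes were highest on IRI 2. Slc4a1, the anion exchanger of the red cell membrane (band 3), was -2.41, 2.08 and -4.63 on IRI 1 to 3 and at most -4.46 on the non-IRI arrays. Klf1, an erythroid transcription factor that acts on beta-globin genes, was -3.38, -1.62 and -3.65 on IRI 1 to 3 and between -4.09 and -3.79 in non-IRI. Car2, carbonic anhydrase 2 of red cells and other cells, was 3.34 on IRI 2 and between -0.50 and 0.91 on the other liver arrays.

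On IRI 2, 12 of the 24 erythroid genes had their highest value of the 7 liver arrays, which is 50% against 11.8% of all kept probes. Of 51 probes for erythroid genes, 8 were well above background on IRI 2 and on no other liver array, 15.7% against 0.529% of all probes. They belong to Gata1, the master erythroid transcription factor, Icam4, Kel and Rhag, blood group proteins of the red cell membrane, Sptb, its spectrin beta chain, and Tfrc, the transferrin receptor. Other Tfrc probes were well above background on all 8 arrays, so for Tfrc this concerns 1 of 3 probes. A different Rhag probe was well above background on IRI 3 alone.

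Against culture, the erythroid list genes, of which 16 of 24 were well above background on all 8 arrays, had no common direction. Against culture 6 of 24 rose and 2 fell in IRI, where 13.5% of all probes rose and 14.5% fell. In non-IRI 6 rose and 3 fell, where 16% of all probes rose and 17.7% fell. In IRI 3 fell without IRI 1 and 1 without IRI 3. With normexp on median signals 1 of 24 rose and 1 fell in IRI. Lmo2, a factor of blood and endothelial cells, was at least 94.6-fold higher in IRI (adjusted p = 6.95e-06, limma), Car2 at least 57.1-fold (0.00152) and Nfe2, a factor of erythroid cells and megakaryocytes, at least 12.8-fold (0.00187). These bounds are those of the main setting. Under the alternatives the differences were as low as 3.56 for Lmo2, 3.39 for Car2 and 1.38 for Nfe2 on the log2 scale. Car2 lost its call under 1 of 20 alternatives and Nfe2 under 2 of 20. Aqp1, a water channel that many cells share, was 3.87 in vitro and lower in IRI by 4.22 on the log2 scale (0.0214); it did not pass without IRI 3 (0.0544).

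A further list holds genes for proteins that bind or take up hemoglobin or heme, degrade heme, or regulate iron. Of 18 such genes 2 rose in IRI and 0 fell, where 0.33% of all probes rose and 2.49% fell. The number that rose was 8 with array weights, 4 with a trend and robust prior and 0 with normexp on median signals. Hpx, hemopexin, a plasma protein made by hepatocytes that binds free heme, rose by 1.94 ± 0.19 (SE; adjusted p = 0.00195, limma). Hamp, the iron hormone hepcidin, rose by 1.46 ± 0.28 (0.0334), which did not pass under the replicate block (0.114). Nor did it when IRI 1 (0.0838), 2 (0.129) or 3 (0.104) was left out, or when 1 of the arrays non-IRI 1 (0.0988), 2 (0.0515) and 4 (0.0510) was. Hmox1, heme oxygenase, differed by 1.09 (0.145), but passed without IRI 1 (0.0477). Hp, haptoglobin, which binds free hemoglobin, differed by 1.43 (0.0821) and Cd163, the macrophage receptor for that complex, by 2.01 (0.219).

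**Figure D5:**
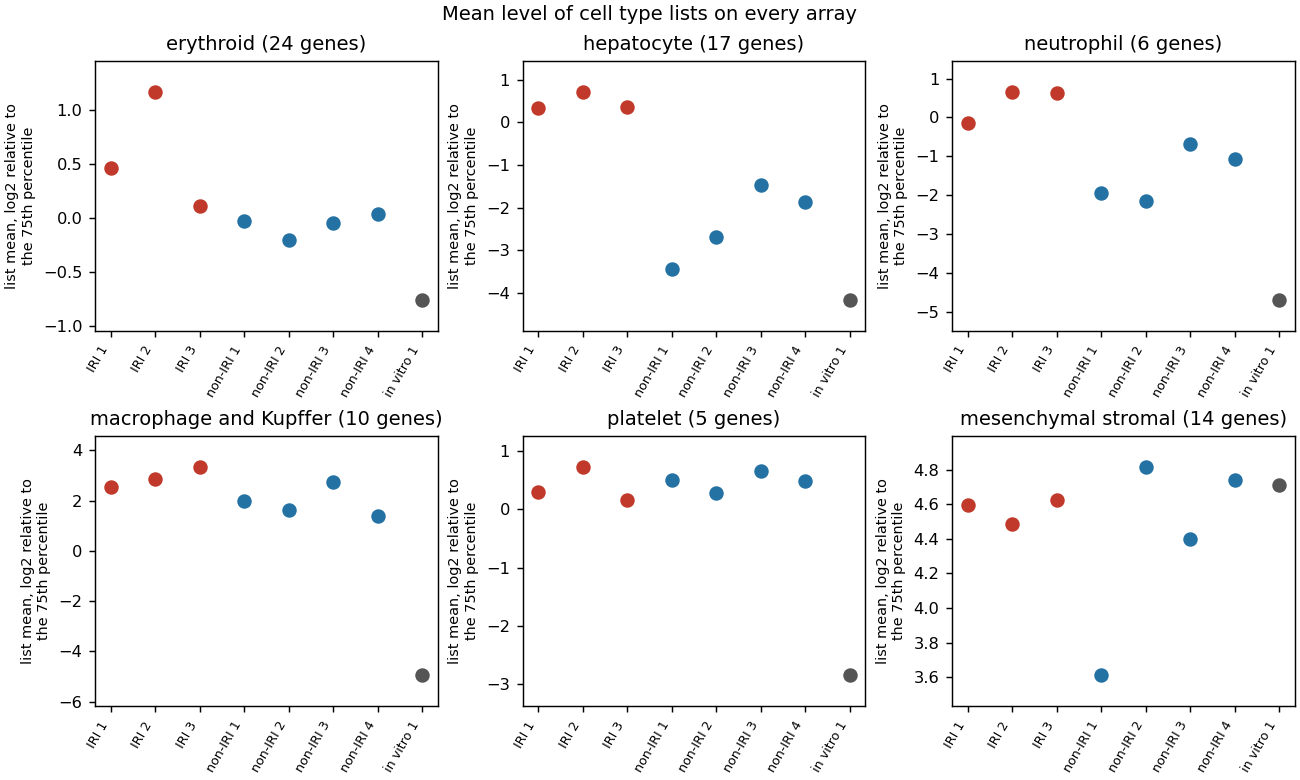
Mean level of 6 lists of marker genes on each array (vertical axis, log2 relative to the array's 75th percentile), IRI in red, non-IRI in blue, in vitro in grey; the vertical scales differ. IRI 2 is highest for the erythroid list, while the hepatocyte list is between 0.33 and 0.71 on all 3 IRI arrays and at most -1.47 on the others.

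Of 7 lists of markers of other cells, that of hepatocytes alone held genes that passed in IRI against non-IRI. Of all probes 0.33% rose and 2.49% fell in that comparison. For hepatocytes 12 of 17 genes rose in IRI, 0 with normexp on median signals, 5 under the replicate block and 2 to 12 with 1 array left out (5, 3 and 2 when IRI 1, 2 or 3 was left out, and 4 and 8 when the array non-IRI 2 or 4 was); the list mean was 0.33 to 0.71 in IRI, -3.44 to -1.47 in non-IRI and -4.17 in vitro. For neutrophils 0 of 6 passed, with means of -0.14 to 0.65, -2.16 to -0.67 and -4.69; 5 of the 6 rose with array weights, 3 with normexp with bright background spots set to the array's median, and 0 or 1 under the other alternatives. For macrophages and Kupffer cells 0 of 10 passed (3 rose with array weights), with means of 2.55 to 3.32, 1.38 to 2.73 and -4.95. For platelets 0 of 5 passed, and IRI (0.15 to 0.72) overlapped non-IRI (0.29 to 0.65). For lymphocytes 0 of 12 passed, with a median difference of 0.37, for endothelial cells 0 of 6, with -0.75, and for mesenchymal stromal cells 0 of 14, with 0.12. IRI 2 had the highest erythroid mean, 1.17 against -0.20 to 0.46 on the other liver arrays. It also had the highest hepatocyte, neutrophil and platelet means, 0.71, 0.65 and 0.72, though the neutrophil mean was 0.64 on IRI 3. Its mean of 2 housekeeping genes was the highest too, 8.21 against 7.76 to 8.02 on the other liver arrays. It was not the highest for macrophages, lymphocytes, endothelial or mesenchymal stromal cells. The part of the listed cell types in the members' values was not tested.

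Over the 7 liver arrays the members followed each other. Pearson's r, given as a description because the points share arrays, slides and groups, was 0.99 for Hbb with Alas2, 0.92 for Hbb with Ahsp, 0.95 for Alas2 with Ahsp and 0.86 for Hbb with Hbb-b1. The lowest value of the 6 pairs was 0.74, for Hbb-b1 with Ahsp. Without IRI 2 the 6 values ran from 0.82 to 0.97.

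Of 8450 genes well above background on all 7 liver arrays, Dapk2, a kinase gene, had the highest r with Hbb (0.991) and Alas2 the next (0.989). They were followed by Basp1 (0.979), Gpt2, Ccnd2 and Il1b (0.955 each), Hba-a3 (0.954) and Tgfbr2 (0.948). Ahsp ranked 22 and Hbb-b1 148. Il1b, an inflammatory cytokine of myeloid cells, was 6.19 on IRI 2 and 2.13 on non-IRI 2, the arrays at which Hbb was highest and lowest.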

How the data were processed

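Spot intensity was deposited per array as scanner output; per the file headers it was background-subtracted and detrended within the array by Feature Extraction 11.0.1.1, whereas version 9.1 is named per the submitters' processing notes. The authors' deposited table holds log2 values, scaled to each array's 75th percentile and centred on each probe's median, as comparison with the scanner signals showed (r of 0.9997 or more for each array; column medians 0.18, -0.07 and -0.05 for IRI, 0.16 in vitro, and 0.09, -0.15, -0.02 and -0.02 for non-IRI); its direction follows that of the signal, and its scale is settled.

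For each spot log2 of the processed signal was taken and the array's 75th percentile subtracted, over 43379 non-control spots; 45 to 117 outlier spots per array were left out and spots of a probe averaged. Probes well above background on at least 3 of 7 liver arrays or in vitro were kept (24821). Symbols came from RefSeq accessions in the GRCr8 table (17541 of 41012 probes). limma 3.58.1 (R 4.3.3) fitted 1 mean per group on all 8 arrays (5 residual degrees of freedom, 3 comparisons), with Benjamini-Hochberg adjustment over all kept probes, and the fit was tested on simulated data. Where a group was nowhere well above background, a fold is "at least": each such array was set to its lowest signal well above background, or to the probe's own if higher. Such a bound concerns the dim signal only and not the spread between arrays. Per the file headers the signal has no counts, so the number of arrays limits the precision.

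Named genes were the members, kept genes of the globin and heme synthesis lists, the 3 with the smallest p or any that passed in related lists, and the 8 most correlated with Hbb; each gene stood by its brightest kept probe. Erythroid genes seen on IRI 2 alone, Klf1, Car2 and Slc4a1 by array were singled out after their values were seen. Members and lists were chosen with earlier results of these data known. Results of 3 list genes are not reported here, and the lists were counted without them.

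IRI and non-IRI arrays with the same replicate number share a position on the slide, and their deviations from the group means correlated at 0.187, 0.163 and 0.103, so the number was also fitted as a block. The in vitro array has number 1 but position 4, so position was a further block. The alternatives were other scalings, background corrections, filters, weights and priors, the authors' table, 1 probe a gene, liver arrays alone, both blocks, slide 1 alone, leaving out each liver array and, chosen after seeing the data, raising signals not well above background to the array's lowest signal well above it.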

Additional observations from a re-analysis of the deposited data

Results flagged for a closer look

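Of 6 erythroid genes (Gata1, Icam4, Kel, Rhag, Sptb and Tfrc) at least 1 probe was well above background on IRI 2 and on no other liver array; most of these probes did not pass the filter on dim probes and entered no comparison. Sptb was -2.15 on IRI 2 and at most -5.30 on the other liver arrays. The cause was not tested.

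Hbe1 was -5.22 on non-IRI 2, apart from the other 3 non-IRI arrays (-6.93 to -6.66), by its probe A_44_P473058; none of these 4 signals was well above background. Dixon's test was run on 17 groups of 4 arrays, and chance flags about 1 in 20 of them.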

How the results depend on the processing

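In IRI against non-IRI, 0 of the 4 members passed under the 20 alternatives that tested all 4, and the differences stayed positive: 1.81 to 3.53 for Hbb, 0.47 to 1.21 for Hbb-b1, 2.00 to 3.78 for Alas2 and 1.24 to 3.45 for Ahsp. With the replicate block they were 3.21, 1.02, 3.35 and 2.62, none of which passed.

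Against culture, Hbb-b1 passed under every alternative that tested it. Because Hbb and Alas2 were not well above background in vitro, their differences here are those of the signals as measured and not bounds. For Hbb in IRI the difference was 3.21 (adjusted p = 0.217, limma) with background corrected by normexp on median signals (offset 50, which shrinks differences of dim probes), 3.22 (0.0588) with bright background spots also set to the array's median, 7.70 (0.0538) with the replicate block and 9.35 (0.0867) with the block by slide position. Ahsp ran from 1.93 to 4.14 in IRI with 1 array left out. In non-IRI the number of members called was 1 under either normexp and under either block, and 2 to 3 with 1 array left out. There Hbb was 2.99 (0.135) with signals not well above background raised to the array's lowest signal well above it, an alternative chosen after seeing the data, under which 2 members were called. Hbb was 1.07 (0.814) and 1.03 (0.489) under the normexp settings, 4.48 (0.155) and 6.14 (0.114) under the blocks, and 4.77 to 5.78 with 1 array left out. Alas2 was 1.88 (0.486), 2.06 (0.193), 5.78 (0.0681) and 7.29 (0.0610) in the same order.

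Of the smaller values that changed sign, Ppox in IRI against non-IRI was -0.20 and Klf1 -0.041 under normexp, and Hbe2 against culture was -0.10 in IRI under normexp, and -0.12 in IRI and -0.034 in non-IRI with bright background spots also set. The platelet median of -0.04 became 0.050 under normexp, 0.017 with bright background spots set, 0.024 without IRI 3 and 0.052 without non-IRI 1; with 1 array left out it ran from -0.136 to 0.052. The causes were not tested.

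Over all probes, 700 passed in IRI against non-IRI, 0 under normexp, 2962 with array weights, 448 when a probe had to be well above background on each of the 8, 280 with the replicate block and 305 to 751 with 1 array left out. In IRI against culture 6936 passed, 678 under normexp, 12022 with weights, 2334 with the position block and 4523 to 7839 with 1 array left out; in non-IRI 8369, 677 under normexp and 3962 with the position block.

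A filter that asked for signal well above background on each of the 8 arrays left Ahsp alone of the members, so no count of the 4 was made. Normexp on mean signals was not run because the scanner output read here held no mean signals. Slide as a block could not be fitted for comparisons that cross slides. Signal over background limits Hbb, Hbb-b1 and Alas2 in vitro to upper bounds.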
